A study of Mus musculus with 2 samples.

Results

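Expression of 10 transcription factor genes that direct photoreceptor development was compared between a mouse retina with Cre-targeted DNA methyltransferase genes (the triple mutant) and its Cre-negative floxed control. The genes were Crx, Otx2, Nrl, Nr2e3, Rorb, Neurod1, Prdm1, Mef2c, Mef2d and Esrrb. They were chosen by name from 23356 gene symbols, and 17 RefSeq transcripts of them were listed. A gene's level was the sum of its transcripts' FPKM (fragments per kilobase of transcript, scaled to library size).

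Retinas were taken at postnatal day 15, with 1 triple mutant library and 1 control library. Both genotypes were homozygous for floxed alleles of Dnmt1, Dnmt3a and Dnmt3b, the genes of the maintenance and de novo DNA methyltransferases. The mutant was Rx-Cre positive and the control Rx-Cre negative. In Rx-Cre, Rx regulatory sequence drives Cre in the retinal lineage, which does not include the microglia and vessels of the tissue. The genotype labels do not give the source of that sequence. The strain label reads C57BL/7 for the mutant and C57BL/6 for the control. The labels do not say whether animals were pooled. With 1 library per genotype there was no test between genotypes, and every difference below is between these libraries.

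The depth read from the lowest values was about 56.2 fragments per kb at 1 FPKM in the mutant and 48.7 in the control. Bracketed ranges are 95% intervals of counting error only. Dnmt1 stood at 11.6 FPKM in the mutant and 21.7 in the control, Dnmt3a at 56.0 and 87.4, and Dnmt3b at 0.827 and 1.03. All of these were lower in the mutant and none was at 0, and a whole-transcript level also counts exons that Cre leaves in place. Rod and cone genes, which mark the cells these factors act in, were present in both libraries. Their summed levels were 21561 and 796 FPKM in the mutant against 25202 and 1201 in the control. The cone sum includes Gnb3 (347 FPKM in the mutant and 218 in the control), which ON bipolar cells also use. Gnb3 was the only 1 of the 11 cone genes that was higher in the mutant. In whole retina, fewer cells of a type and less RNA per cell cannot be told apart.

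Photoreceptor fate in the mouse is set by a cascade of such factors. Otx2 commits progenitors to the photoreceptor lineage, Rorb and Neurod1 act in the same early step, and Prdm1 holds back the bipolar cell fate. Crx then drives most photoreceptor genes, Nrl commits a precursor to the rod fate, and Nr2e3, a target of Nrl, activates rod genes and represses cone genes. Mef2d works with Crx at photoreceptor genes, Mef2c belongs to the same family, and Esrrb, another target of Nrl, supports rod survival.

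Since DNA methyltransferases act on CpG dinucleotides, the promoter windows of 5 of the genes are shown first: those with the largest differences at substantial levels (Nrl, Nr2e3, Esrrb), Crx as the factor highest in the control, and Neurod1 as a CpG-rich contrast. Each window holds 250 bases before and 50 after a RefSeq start site (GRCm38.p6), 5′ to 3′ on the gene's strand. Capitals mark every CG and every TAATCC or its reverse complement GGATTA, the core motif that Crx and Otx2 bind. The windows are chr14:55524203-55524502 for Nrl, chr9:59950030-59950329 for Nr2e3, chr7:15879906-15880205 for Crx and chr2:79456587-79456886 for Neurod1, all on the minus strand, and chr12:86421394-86421693 on the plus strand for Esrrb.
Nrl: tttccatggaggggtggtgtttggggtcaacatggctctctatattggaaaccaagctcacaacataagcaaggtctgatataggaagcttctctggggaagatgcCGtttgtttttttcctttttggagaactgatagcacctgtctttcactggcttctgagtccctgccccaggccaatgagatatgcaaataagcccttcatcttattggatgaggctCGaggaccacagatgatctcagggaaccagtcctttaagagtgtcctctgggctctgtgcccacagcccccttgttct
Nr2e3: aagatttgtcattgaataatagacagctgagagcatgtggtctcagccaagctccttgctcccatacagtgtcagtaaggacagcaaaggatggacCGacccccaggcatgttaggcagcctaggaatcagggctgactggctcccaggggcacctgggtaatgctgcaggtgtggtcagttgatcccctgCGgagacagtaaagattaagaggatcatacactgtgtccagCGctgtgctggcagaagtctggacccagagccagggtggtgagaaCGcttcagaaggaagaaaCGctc
Crx: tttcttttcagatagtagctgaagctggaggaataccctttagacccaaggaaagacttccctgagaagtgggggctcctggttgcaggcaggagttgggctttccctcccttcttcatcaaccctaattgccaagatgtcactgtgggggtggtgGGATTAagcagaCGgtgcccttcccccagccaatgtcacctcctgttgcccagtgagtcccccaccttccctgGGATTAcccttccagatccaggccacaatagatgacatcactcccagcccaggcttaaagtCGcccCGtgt
Esrrb: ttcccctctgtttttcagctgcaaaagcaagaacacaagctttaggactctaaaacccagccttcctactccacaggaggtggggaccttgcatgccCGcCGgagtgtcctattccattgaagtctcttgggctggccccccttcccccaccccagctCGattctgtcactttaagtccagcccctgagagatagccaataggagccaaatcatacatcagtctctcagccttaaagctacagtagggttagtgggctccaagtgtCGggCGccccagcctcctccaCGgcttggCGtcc
Neurod1: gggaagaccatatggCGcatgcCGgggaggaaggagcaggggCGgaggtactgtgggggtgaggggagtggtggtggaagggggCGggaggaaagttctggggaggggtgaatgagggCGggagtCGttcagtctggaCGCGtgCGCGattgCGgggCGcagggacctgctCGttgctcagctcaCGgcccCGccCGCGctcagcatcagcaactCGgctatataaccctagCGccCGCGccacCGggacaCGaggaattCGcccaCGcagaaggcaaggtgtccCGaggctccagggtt

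The Nrl window held 2 CpGs, the Crx window 3, the Nr2e3 window 5 and the Esrrb window 7, whereas the Neurod1 window held 26. The Nrl window lies near the start of NM_008736, a transcript with 15.0% of the Nrl level in the mutant and 15.6% in the control. It is thus not shown to be the promoter of most Nrl RNA. Over all 32851 RefSeq windows of this length the median was 7, with quartiles of 3 and 20. All 10 genes had at least 1 window, 17 in all. Mef2d had 24 CpGs and Prdm1 had 20 in their single windows. Rorb had 20 at its upstream start and 5 at its downstream start. Windows with 7 CpGs or fewer belonged to Nrl, Nr2e3, Crx and Esrrb, and to 1 window of Otx2, 2 of Mef2c and 1 of Rorb. A link between CpG content and the differences given below was not tested. DNA methylation itself was not analysed here.

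TAATCC, searched on both strands, occurred in 2 of the 17 windows, against 7.06% of all windows. The Crx window held it 2 times, 94 and 21 bases before the start, and the third Otx2 window from upstream held it once, 211 bases before a start at 48665109 on chromosome 14. TGCTGA, the half-site of the element that Nrl and other Maf proteins bind, occurred in 6 of the 17 windows, against 19.5% of all windows; Neurod1, Mef2d, Mef2c, Otx2 and Rorb held it. AGGTCA, the half-site of nuclear receptors such as Rorb, Nr2e3 and Esrrb, occurred in 2, both of Mef2c, against 16.3%. No match overlapped another match in these windows, and a match is a description of sequence, not of binding.

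The levels spanned from abundant to scarce in both libraries. In the mutant, Nrl was highest with 692 FPKM, ahead of Crx with 459 and Nr2e3 with 443. In the control, Crx was highest with 484 FPKM, ahead of Nrl with 441 and Nr2e3 with 273. These 3 genes lay above at least 99.1% of 13280 measured genes in each library, where measured means at least 1 FPKM in at least 1 library. Neurod1 came next in both, with 252 FPKM in the mutant and 213 in the control. Otx2, Mef2d and Esrrb followed in the mutant in that order and Esrrb, Mef2d and Otx2 in the control, so that Esrrb and Otx2 exchanged places. Rorb, Prdm1 and Mef2c were the lowest in both. Neighbours in each order were apart by more than their counting intervals; the closest were Mef2d (106.95 to 109.5 FPKM) and Otx2 (102 to 106.7) in the control. Summed, the 10 genes had 2222 FPKM in the mutant and 1819 in the control, a ratio of 1.22.

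**Figure D1:**
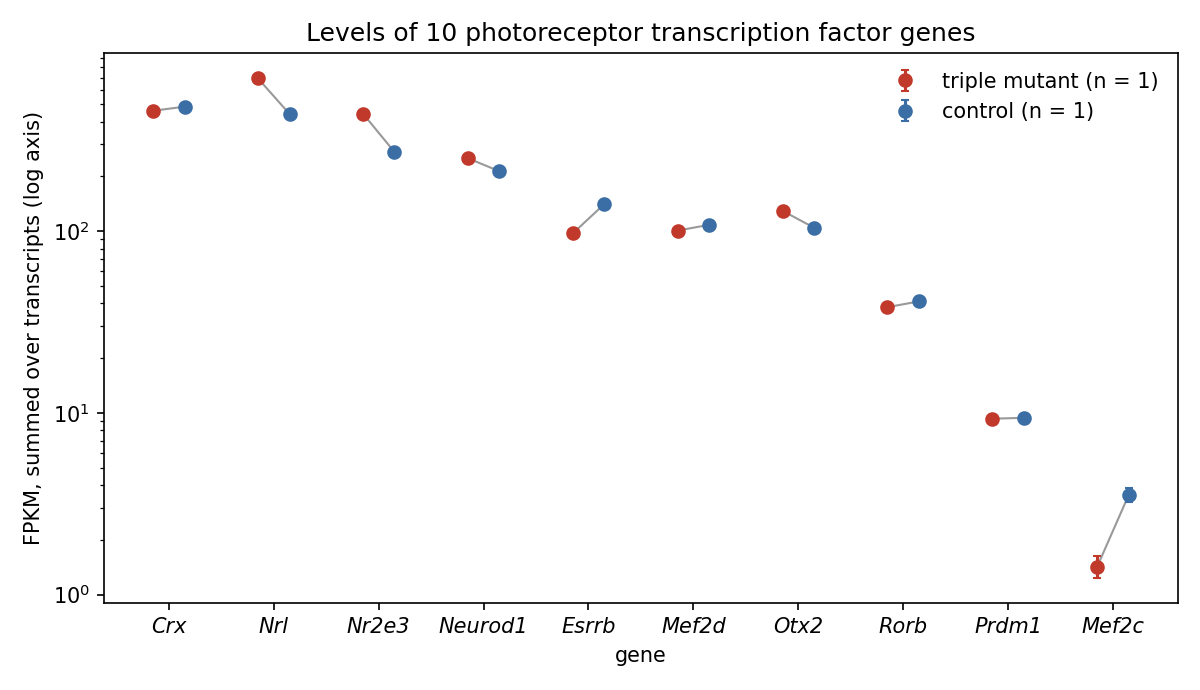
Level of each gene in FPKM on a log axis, triple mutant (red, left) beside control (blue, right), 1 library each; bars are 95% counting intervals and mostly lie within the points. Nrl and Nr2e3 stand higher in the mutant (692 and 443 FPKM) than in the control (441 and 273), and Esrrb and Mef2c lower.

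Differences were measured as the log2 ratio of mutant to control after adding 1 FPKM to each, which shrinks the ratio of genes at low levels. None of the 10 genes reached a log2 ratio of 1 either way, which 2.49% of measured genes did (1.84% higher and 0.648% lower in the mutant). At a smaller limit of 0.5 either way, 4 of the 10 passed, against 10.1% of measured genes (5.37% higher and 4.74% lower): Nrl and Nr2e3 were higher and Esrrb and Mef2c lower. The limit of 0.5 was set knowing that Nrl and Nr2e3 lay below 1, so this count describes the genes and supports nothing. The median of the 10 was -0.045, beside 0.00 for all measured genes, whose quartiles were -0.16 and 0.15. Of the 10 genes, 4 lay above the upper quartile of all genes, 2 below the lower quartile and 4 between.

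**Figure D2:**
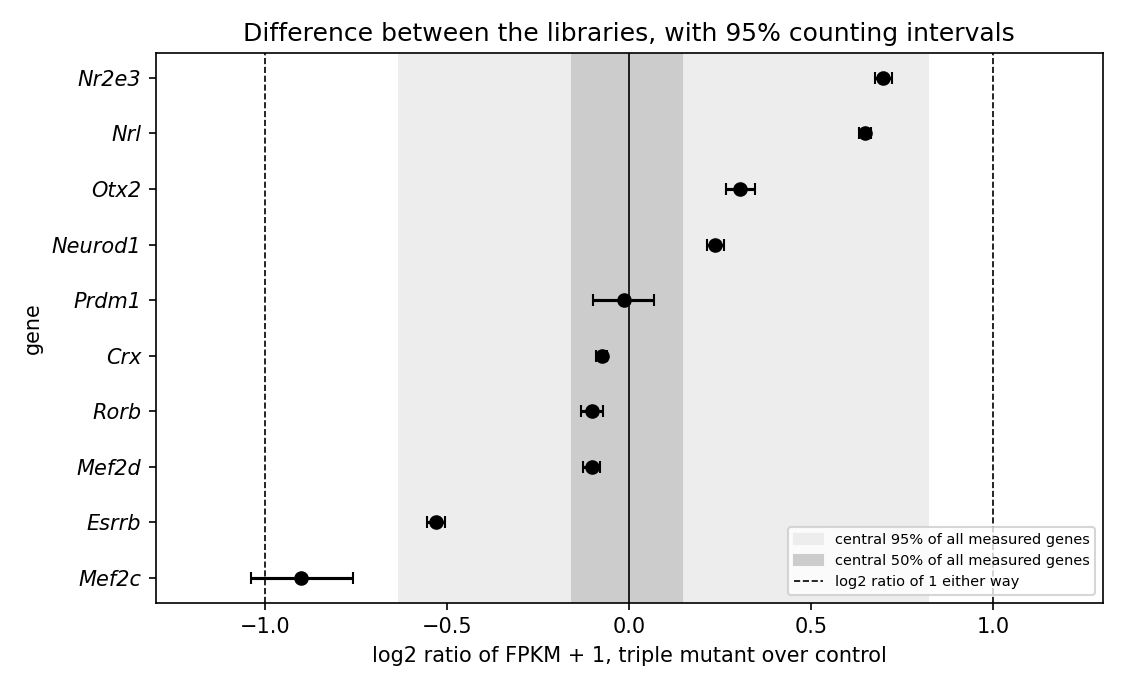
Log2 ratio of FPKM + 1, triple mutant over control, for each gene, with 95% counting intervals as bars; grey bands are the central 50% and 95% of 13280 measured genes and dashed lines mark 1 either way. Mef2c, at -0.90, is the only one of the 10 outside the central 95% (-0.63 to 0.82).

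The rod-determining pair stood higher in the mutant. Nrl (chromosome 14, 55518978 to 55524981, minus strand, GRCm38), which encodes a leucine zipper protein of the Maf family, had 692 FPKM in the mutant and 441 in the control, 157% of the control (155 to 158). Nr2e3 (chromosome 9, 59942771 to 59960659, minus strand), a nuclear receptor gene, had 443 FPKM in the mutant and 273 in the control, 163% of the control (160.03 to 165). Their log2 ratios of 0.65 and 0.70 were higher than those of 96.3% and 96.8% of measured genes. The level of Nr2e3 relative to Nrl differed little, at 0.641 in the mutant and 0.618 in the control, whereas the level of Nrl relative to Crx was 1.51 in the mutant and 0.911 in the control. So the pair kept nearly the same proportion to each other while both stood higher against Crx.

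Crx and Otx2 are homeobox genes of one family. Crx (chromosome 7, 15865947 to 15879968, minus strand) measured 459 FPKM in the mutant and 484 in the control, or 94.9% of control (93.9 to 95.9). With a log2 ratio of -0.075 it stood inside the central 50% of all genes. Otx2 (chromosome 14, 48657677 to 48673819, minus strand) measured 129 FPKM in the mutant and 104 in the control, 124% of the control (120.3 to 127). Otx2 is also used in bipolar cells and pigment epithelium. Bipolar genes summed to 1396 FPKM in the mutant and 1162 in the control. The 10 measured pigment epithelium genes, among them Rpe65 with 0.126 and 5.16, summed to 9.01 FPKM in the mutant and 154 in the control, and all 10 were lower, 9 of them past a log2 ratio of 1. The part of either cell type in the Otx2 value was not tested. Exons of the antisense gene Otx2os1 (8.80 FPKM in the mutant and 7.08 in the control) overlap Otx2, and no source says whether the counting kept the strands apart.

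Neurod1, Rorb and Prdm1, of the early step, differed less than Nrl and Nr2e3. Neurod1 (chromosome 2, 79452521 to 79456751, minus strand), a basic helix-loop-helix gene needed to keep photoreceptors alive in the mouse, had 252 FPKM in the mutant and 213 in the control, 118% of the control (116 to 119.8). Exons of Cerkl, on the same strand, overlap it in the annotation; Cerkl had 39.2 FPKM in the mutant and 21.5 in the control, and the split of shared fragments is uncertain. Rorb (chromosome 19, 18930605 to 19111196, minus strand), a nuclear receptor gene needed for rods in the mouse, had 38.2 FPKM in the mutant and 41.0 in the control, 93.0% of the control (91.1 to 94.9). Prdm1 (chromosome 10, 44437177 to 44528501, minus strand), a zinc finger repressor gene, had 9.28 FPKM in the mutant and 9.38 in the control. Its interval, 92.7% to 105% of the control, held equality, the only one of the 10 to do so.

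Of Esrrb, Mef2d and Mef2c, 2 of 3 were lower past a log2 ratio of 0.5. Esrrb (chromosome 12, 86361117 to 86521628, plus strand), an orphan nuclear receptor gene, had 97.1 FPKM in the mutant and 141 in the control, 69.0% of the control (67.8 to 70.2). Its log2 ratio was -0.53, and -0.47 in the second table described below, which is short of 0.5. In that table the median of all measured genes was 0.054. Esrrb relative to Nrl was 0.140 in the mutant and 0.319 in the control, so these genes, both of the rod programme, stood on opposite sides of 0. Mef2d (chromosome 3, 88142372 to 88172086, plus strand) measured 101 FPKM in the mutant and 108 in the control, 93.1% of the control (91.6 to 94.6); the antisense gene 1700113A16Rik (42.1 and 37.9 FPKM) overlaps its exons. Mef2c (chromosome 13, 83504034 to 83667080, plus strand) measured 1.42 FPKM in the mutant and 3.53 in the control, 40.3% of the control (34.1 to 47.6), the furthest of the 10 from equality. These values rested on about 211 fragments in the mutant and 457 in the control. Its log2 ratio of -0.90 became -1.25 with a pseudocount of 0.1 FPKM, past the limit of 1, and -0.41 with one of 5.

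Mef2c is also used outside photoreceptors, in microglia, endothelium and some neurons. The microglia markers summed to 159 FPKM in the mutant and 50.2 in the control, with 12 of 12 higher. The ganglion cell markers summed to 645 FPKM in the mutant and 970.1 in the control and the amacrine markers to 244 and 298, with 9 of 9 and 8 of 8 lower. The endothelial markers summed to 131 and 137 FPKM, with 6 of 7 lower. Mef2c thus differed in the direction opposite to microglia markers and in that of ganglion, amacrine and most endothelial markers. The part of any of these cell types in the Mef2c value was not tested.

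The transcripts of a gene mostly differed in the same direction. Nrl had 4, and all 4 were higher in the mutant: NM_001271916 had 370 FPKM in the mutant and 232 in the control, NM_001136074 had 191 and 131, NM_008736 had 103 and 68.9, and NM_001271917 had 26.8 and 9.18. Their shares of Nrl differed little, the most for NM_001136074, with 27.7% in the mutant and 29.8% in the control. NM_008736 starts at 55524191 on chromosome 14, near the start of the Nrl window shown above. The other 3 match 1 GENCODE transcript with a start further upstream, so how fragments were split among those 3 is uncertain. Crx came almost wholly from NM_007770 (459 FPKM in the mutant and 484 in the control), and NM_001113330, which starts within the gene at 15872388 on chromosome 7, was listed at 0 in the mutant and 0.277 in the control. Esrrb came from NM_011934 (96.96 and 141 FPKM), which starts at 86421644 on chromosome 12, the start whose window is shown above; NM_001159500, starting upstream at 86361117, had 0.138 and 0.0504 FPKM.

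Rorb has 2 start sites that differ in CpG content. NM_146095, from the downstream start with 5 CpGs, had 27.3 FPKM in the mutant and 28.6 in the control, 71.5% and 69.7% of Rorb. NM_001043354, from the upstream start with 20 CpGs, had 10.9 FPKM in the mutant and 12.4 in the control. The use of the starts thus differed by 1.77 points between the libraries. For Mef2c, both transcripts were lower: NM_001170537 had 1.04 FPKM in the mutant and 2.86 in the control, and NM_025282 had 0.386 and 0.668. They start at 83504206 and 83504034 on chromosome 13. Promoter windows further downstream, at 83523656 and 83573607, had no listed transcript, so forms from those starts were not measured separately.

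A second table from the authors, made on the same libraries with further transcripts, listed 4 for Otx2 and 3 for Rorb. There, Otx2 summed to 134 FPKM in the mutant and 102 in the control, and all 4 transcripts were higher in the mutant. NM_001286482, which starts at 48667515 on chromosome 14, had 46.7 FPKM in the mutant and 25.3 in the control, 34.7% and 24.9% of Otx2. NM_001286483, from a start at 48665106, had 57.9 and 53.6 FPKM, 43.1% and 52.7%. The share of the first was thus 9.88 points higher in the mutant and that of the second differed by -9.57 points, the largest differences in share among the 10 genes in that table. The Otx2 window with the TAATCC match is set at a RefSeq start close to that of NM_001286483.

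**Figure D3:**
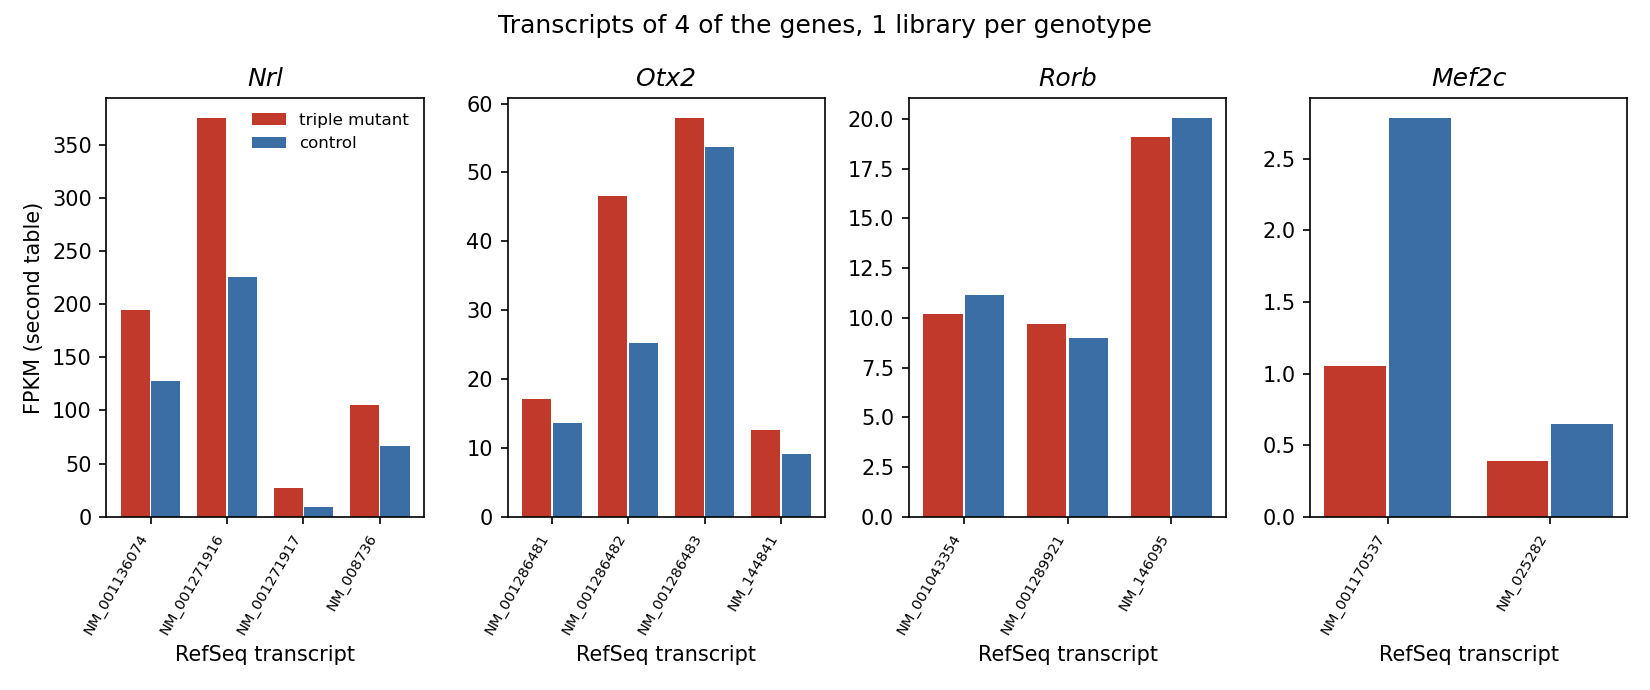
FPKM of each RefSeq transcript of Nrl, Otx2, Rorb and Mef2c in the second table, triple mutant (red, left) beside control (blue, right), 1 library each; vertical axes differ. All Nrl and Otx2 transcripts are higher in the mutant, with NM_001286482 of Otx2 at 46.7 and 25.3 FPKM, and both Mef2c transcripts are lower.

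The related regulators were read from lists of cone factors, upstream regulators, cofactors and paralogs. None of these lists had a gene past a log2 ratio of 1, and their medians were -0.021, 0.12, -0.065 and 0.099. Of 11 cone transcription factors, 1 was higher and 2 lower past 0.5: Nr2f2 had 10.5 FPKM in the mutant and 7.03 in the control, Rxrg had 3.12 and 4.93, and Rora had 31.5 and 45.1. Rxrg and Rora, like Thrb, are nuclear receptor genes that regulate cone opsins. Thrb had 17.9 FPKM in the mutant and 18.1 in the control, Sall3 had 1.28 and 2.22, Tbx2 had 64.1 and 48.6, and Onecut1 had 2.28 and 3.15. The cone factors thus differed in both directions.

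Of 13 measured upstream regulators, 2 were higher and 1 lower past 0.5. Notch1, whose signal holds back photoreceptor fate in progenitors, had 12.7 FPKM in the mutant and 7.55 in the control. Its effector genes went opposite ways, with Hes5 at 4.09 and 8.45 FPKM and Hes1 at 21.9 and 16.6. The proneural gene Neurog2 had 3.96 and 2.105 FPKM and the retinoblastoma gene Rb1 21.7 and 16.6. Rax, the mouse Rx gene, had 129 FPKM in the mutant and 123 in the control.

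None of 12 cofactors passed 0.5. Samd7 and Samd11, which silence non-rod genes in mouse rods, had 79.9 and 206 FPKM in the mutant and 62.9 and 179 in the control. Nr1d1, a partner of Nr2e3, had 74.0 and 88.9 FPKM, and Sp4, a zinc finger partner of Crx, had 19.6 and 23.0. Ankrd33 had 129.9 and 145 FPKM and Crebbp 13.5 and 14.7. These partners thus differed less than Nrl, Nr2e3, Esrrb and Mef2c did.

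Of 17 measured paralogs, 2 were higher and 2 lower past 0.5. Nr2e1 had 10.3 FPKM in the mutant and 6.68 in the control, Mef2b had 0.983 and 1.86, and Rora is given above. Mef2a, at 22.3 and 24.5 FPKM, lay close to Mef2d in ratio and not to Mef2c. Esrra had 18.5 and 20.4 FPKM, Neurod4 had 100.4 and 77.9, and Otx1 had 1.18 and 0.688.

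Rod and cone genes, the known targets of these factors, were then set beside them. Of 26 measured rod genes, 23 were below 0 and 3 above, with a median log2 ratio of -0.19; 4 were lower past 0.5 and 0 were higher. The 4 were Guca1a (101 FPKM in the mutant and 315 in the control), Guca1b (353 and 614), Grk1 (177 and 286) and Slc24a1 (207 and 296), which encode guanylate cyclase activators, a photoreceptor kinase and a cation exchanger. The part of cones in these 4 values was not tested. The rod transducin gene Gnat1 had 3211 and 4266 FPKM and the phosphodiesterase gene Pde6g 1467 and 1950.2. The higher levels of Nrl and Nr2e3 in the mutant were therefore not accompanied by higher levels of most rod genes.

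Of 11 cone genes, 10 were below 0, with a median of -0.93, and all 10 were lower past 0.5, 4 of them past 1. Opn1sw, the short-wave opsin gene, had 45.0 FPKM in the mutant and 177 in the control, and Opn1mw, the middle-wave opsin gene, had 85.1 and 163. Pde6h had 138 and 290 FPKM, Arr3 had 48.3 and 101, Gnat2 had 35.2 and 72.1, and Slc24a2 had 6.72 and 14.3. The exception, named after its value was seen, was Gnb3, with 347 FPKM in the mutant and 218 in the control, a transducin subunit gene that ON bipolar cells also use. Of 19 bipolar genes, 12 were above 0, with a median of 0.054 and 1 past 0.5, Pcp2 (386 and 229 FPKM); Bhlhe23 had 33.1 and 25.96.

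**Figure D4:**
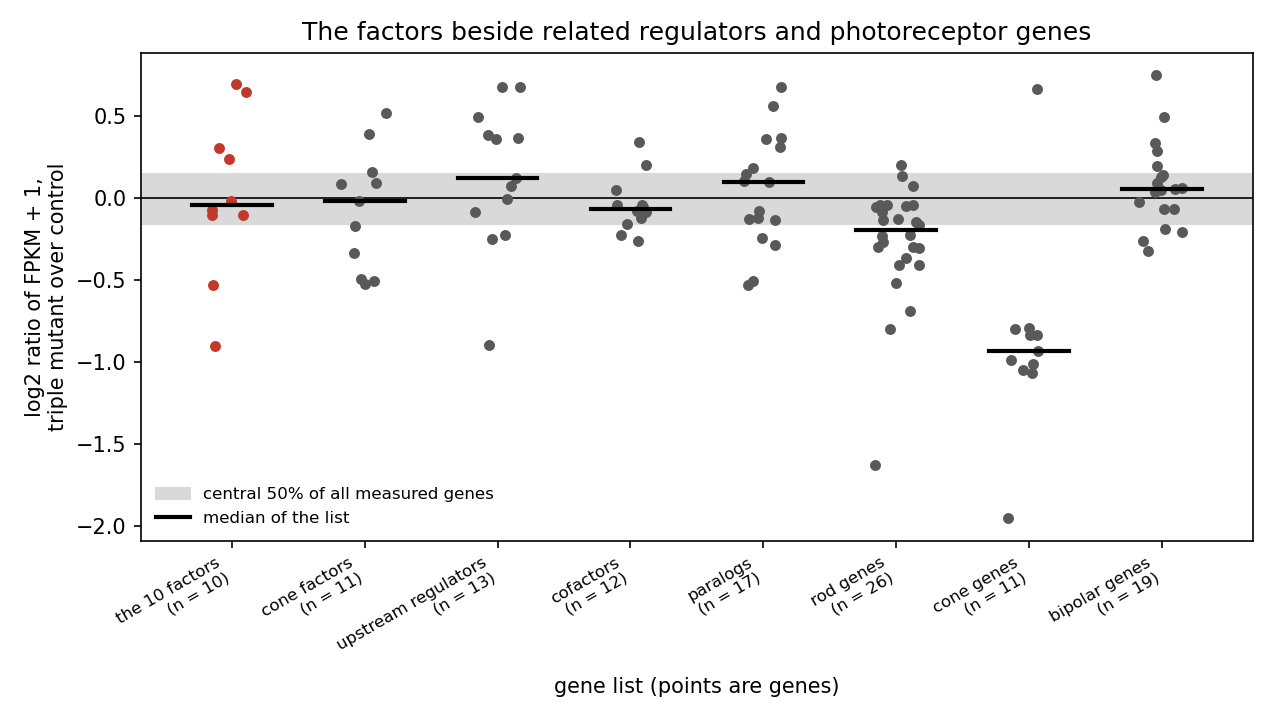
Log2 ratio of FPKM + 1, triple mutant over control, for each measured gene of 8 lists; bars are list medians and the grey band is the central 50% of all measured genes. The 10 factors (red) spread from -0.90 to 0.70 around a median of -0.045, while rod genes centre on -0.19 and cone genes on -0.93.

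Dividing by the rod genes gives the factors a different reference point. Centred on the rod median, the log2 ratio was 0.84 for Nrl, 0.89 for Nr2e3, 0.50 for Otx2, 0.43 for Neurod1 and 0.12 for Crx, and 8 of the 10 genes lay above 0. Esrrb (-0.34) and Mef2c (-0.71) stayed below. This centring moves the median of all measured genes to 0.19. Crx, Rorb, Mef2d and Prdm1 changed sign under it, so no direction is given for these. Prdm1 also changed sign in the second table (0.040).

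**Figure D5:**
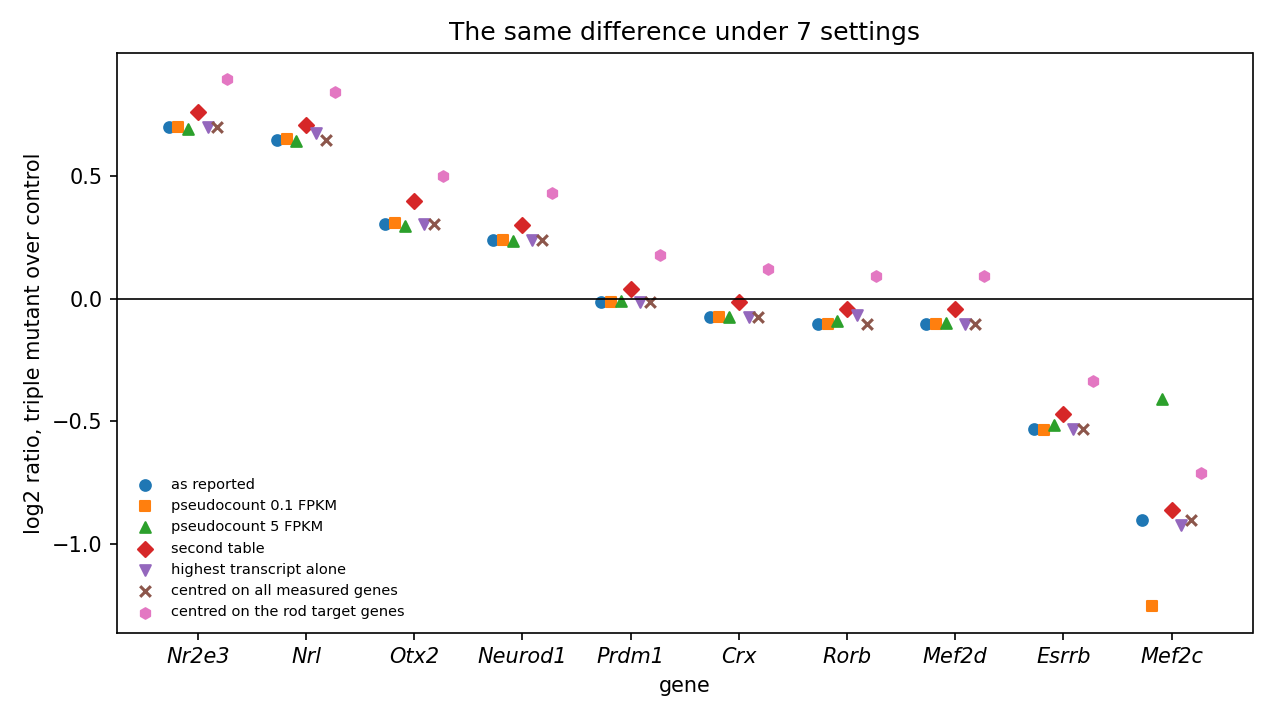
Log2 ratio of each gene, triple mutant over control, as reported and under 6 other settings, named in the legend. Nrl, Nr2e3, Otx2 and Neurod1 stay above 0 and Esrrb and Mef2c below 0 in all 7, and the other 4 genes cross 0 when centred on the rod genes. Prdm1 also crosses 0 in the second table (0.040).

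In the authors' deposited table, which applies Cuffdiff's model to these unreplicated libraries, none of the 17 transcripts was called significant, where 0.353% of transcripts with status OK had a q-value under 0.05. The lowest p-values of the 17 in the authors' deposited table, from Cuffdiff's model, belonged to Mef2c and Nr2e3. The Mef2c transcript NM_001170537 had p = 0.0182 (q = 0.832) and the Nr2e3 transcript p = 0.0389 (q = 0.999) in the authors' deposited table. The Nrl transcripts had p-values of 0.184 to 0.553 and Esrrb NM_011934 had 0.0914 in the authors' deposited table.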

How the data were processed

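Per the labels' protocols, total RNA came from dissected retina and a company made the Illumina libraries. The submitters' processing notes name TopHat2 (2.0.8), Cuffdiff (2.1.1) and the mm10 build; no source says whether counting used strand. What the authors deposited is FPKM for each RefSeq transcript, in 2 tables of 30608 and 33362 rows, per the file headers. Each row also carries the authors' log2 fold change, p-value and q-value, per the file headers.

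Gene FPKM was the sum over transcripts in the table with symbols (15318 of 23356 symbols had a transcript of status OK and none failed or with excessive data). The second table was joined by accession. The log2 ratio used a pseudocount of 1 FPKM, and 13280 genes with at least 1 FPKM in a library were measured.

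Depth was read from the low values of long genes (3000 bases or more) with a single transcript. Of these, 71.7% of mutant and 75.9% of control values were whole multiples of a step within 10% of it. For a fixed step, 20% would be by chance. Both the step and the fragment length of 150 bases were chosen for a high share, so the share by chance after that choice is higher and was not worked out. Intervals are exact binomial or Poisson, at 95%, and were tested on simulated data. The steps apply to single transcripts; for genes of several, fragments are summed estimates.

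Coordinates are GENCODE M21 (GRCm38, the assembly mm10 denotes); promoter windows are RefSeq's. Members and lists were chosen with earlier results of these data known. Beyond the members, genes were named as the largest log2 ratios of each list (up to 3 or 6) plus a fixed few; some of these are not reported here. Python 3.11.15, numpy 2.4.6, pandas 2.3.3 and scipy 1.17.1 were used.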

Additional observations from a re-analysis of the deposited data

How the results depend on the processing

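With 1 library per genotype, no interval covers biological spread. Nrl, Nr2e3, Otx2 and Neurod1 kept log2 ratios above 0 and Esrrb and Mef2c below 0 under all 8 alternatives that gave a value. The ranges were 0.64 to 0.84 for Nrl, 0.69 to 0.89 for Nr2e3 and -0.54 to -0.34 for Esrrb. The median of the 10, -0.045, became 0.013 in the second table, where the median of all measured genes was itself 0.054. When centred on rod genes it became 0.15. There, 2 genes in place of 6 lay below 0 and 5 of the 16 lists in place of 10 had a median below 0. That shift comes from the rod median itself. With a pseudocount of 0.1 FPKM, 1 of the 10 passed a log2 ratio of 1, against 4.29% of measured genes. This was Mef2c at -1.25, and it stood at -0.41 with a pseudocount of 5. Past 0.5, 3 of the 10 passed in place of 4 in the second table (Esrrb -0.47), against 9.89% of measured genes. The count was also 3 when centred on rod genes (12.7% of measured genes) and with a pseudocount of 5 (4.10%). It was 3 too among genes of at least 5 FPKM (8.32%), where Mef2c gave no value. The largest difference in transcript share was 8.16 points as reported and 9.88 in the second table. No paired analysis was possible because each genotype had 1 library.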
